A study of Mus musculus with 6 samples.

Results

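The stefin A gene cluster was examined in neutrophils of mouse pancreatic tumours by single-cell RNA-seq. It was taken as 6 named genes, Stfa1, Stfa2, Stfa2l1, Stfa3, Cstdc4 and Cstdc5, of the 32285 genes in the count tables. Neutrophils were gated as cells in which S100a8 and S100a9, the subunits of calprotectin, made up at least 1% of all unique molecular identifiers (UMIs, the counted RNA molecules). The gate held 23072 of 63182 cells. The 6 genes had been picked for their levels in these same cells, so their excess in neutrophils, their co-detection within a cell and their differences between libraries, those between the groups included, are given as description with no p. The comparisons between neutrophil states, which were gated on other genes, carry tests.

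Stefins are small intracellular inhibitors of papain-like cysteine proteases, the family of lysosomal cathepsins B, L, S and H, and form the first branch of the cystatin superfamily. Humans carry a single stefin A gene, whereas in the mouse it was duplicated into a cluster. Stfa1, Stfa2, Stfa2l1 and Stfa3 are classical members of this cluster, and Cstdc4 and Cstdc5 are cystatin domain genes of the same block that had only clone names in older annotations. Stefin A transcripts are long known from mouse myeloid cells and skin, and stefins occur in the cytosol, where they are placed to act on proteases that leak from lysosomes or granules.

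The tumours came from KPC cells, a pancreatic cancer line derived from KPC mice, which carried either an MLKL overexpression construct (OE-MLKL) or the vector alone (OE-Vector). The cells were placed in the pancreas of C57BL/6 mice aged 6 to 8 weeks, and tumours were taken 4 weeks later, with 3 samples per group and 6 in all. Only the implanted cells carried a construct. Neutrophils were therefore host cells in both groups, and whether the implanted line was a single clone, or which promoter drove the construct, was not given in the sources used here. Count matrices of the libraries labelled OE-Vector 1 and OE-MLKL 1, 2 and 3 were analysed, and OE-Vector 2 and 3 were not analysed here. MLKL executes necroptosis, a lytic form of cell death, and the study asked how tumour cells with more of it shape the surrounding immune cells.

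The 4 libraries held 150591289 to 169978362 UMIs each, and 13489 to 18808 cells per library were kept. The labels named the cells pancreatic cancer cells, but only 16947 of the cells carried cancer-cell markers by the marker rule. Mlkl did not separate the labelled groups. In cells with cancer markers it stood at 15.7 counts per 1000000 UMIs (CPM) in OE-Vector 1 and at 8.78, 12.9 and 19.4 CPM in OE-MLKL 1, 2 and 3. A 3′ tag may lie outside a construct, so this reading cannot settle the labels, and every direction between the groups below rests on labels that Mlkl did not bear out. Between 54 and 90 cell barcodes were shared by any pair of libraries, at most 0.615% of the smaller one.

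All 6 genes lay within 299 kb of mouse chromosome 16 (GRCm38, 36156811 to 36455392), each with 3 exons. Stfa2l1 (36156811 to 36161953), Cstdc4 (36184212 to 36188111) and Stfa1 (36276951 to 36285373) were on the plus strand, and Cstdc5 (36359382 to 36367748), Stfa2 (36403992 to 36408457) and Stfa3 (36450537 to 36455392) on the minus strand. The block also held Csta3, Csta2 and Cstdc6, and the antisense gene Gm15845, which overlaps Cstdc5 and had 1 UMI in all gated neutrophils. Coding sequences of the 15 pairs were 59.2% to 96.5% identical, with Stfa2 and Stfa2l1 the closest pair. Such likeness bears on the counts, since Cell Ranger does not count a read that fits several genes equally well. Among 90-base stretches of each transcript, 16.6% of those of Cstdc5 were also found in Cstdc6 or Stfa1, 15.4% of those of Cstdc4 in Csta2, 4.24% of those of Stfa1 in Cstdc5, 2.42% of those of Stfa2l1 in Stfa2 and 2.09% of those of Stfa2 in Stfa2l1. For Stfa3 there were 0 such stretches. By these shares over whole transcripts, Cstdc4 and Cstdc5 are the most exposed. Where along a transcript the shared stretches lie, which matters for 3′ tags, was not looked at.

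The promoters are shown because the 6 genes were found together in the same cells and their start regions share unbroken runs of bases. Each line gives 105 bases before and 20 bases from the RefSeq transcription start on (GRCm38.p6), read 5′ to 3′ on the gene's own strand. Capitals mark 4 runs that all 6 promoters hold:
Stfa1 (chr16:36277043-36277167, plus strand): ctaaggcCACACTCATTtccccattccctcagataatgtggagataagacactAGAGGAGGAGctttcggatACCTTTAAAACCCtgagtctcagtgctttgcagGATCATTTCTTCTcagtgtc
Stfa2 (chr16:36408344-36408468, minus strand): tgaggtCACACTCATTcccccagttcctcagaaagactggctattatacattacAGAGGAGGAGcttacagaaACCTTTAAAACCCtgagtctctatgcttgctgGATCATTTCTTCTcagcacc
Stfa2l1 (chr16:36156706-36156830, plus strand): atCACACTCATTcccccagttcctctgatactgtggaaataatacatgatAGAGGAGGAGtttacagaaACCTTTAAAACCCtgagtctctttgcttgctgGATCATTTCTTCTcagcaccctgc
Stfa3 (chr16:36455373-36455497, minus strand): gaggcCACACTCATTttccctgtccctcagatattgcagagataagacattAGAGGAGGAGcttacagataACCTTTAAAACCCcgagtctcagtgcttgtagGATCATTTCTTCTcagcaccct
Cstdc4 (chr16:36184107-36184231, plus strand): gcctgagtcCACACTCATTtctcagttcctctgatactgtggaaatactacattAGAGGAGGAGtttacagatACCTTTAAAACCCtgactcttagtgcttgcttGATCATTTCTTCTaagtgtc
Cstdc5 (chr16:36367551-36367675, minus strand): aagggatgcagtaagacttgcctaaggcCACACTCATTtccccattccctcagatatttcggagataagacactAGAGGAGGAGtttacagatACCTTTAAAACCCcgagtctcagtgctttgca

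All 6 genes were matched by symbol among 32851 RefSeq promoters of 300 bases, and promoter pairs were 68.7% to 91.7% identical. The run ACCTTTAAAACCC was found in 9 of all promoters (0.0274%), among them the 6 here and the relatives Csta3, Cstdc3 and Gm7260. It began 32 to 36 bases before the start in 5 genes and 12 bases before it in Cstdc5. GATCATTTCTTCT was found in 10 promoters (0.0304%) and began within 4 bases of the start in the same 5 genes. In Cstdc5 it lay 22 to 34 bases past the start, beyond the bases shown. CACACTCATT occurred in 37 promoters (0.113%) and AGAGGAGGAG in 337 (1.03%). On either strand, GAGGAA, the core bound by the myeloid factor PU.1, was present in 6 of 6 promoters and in 28.3% of all. TTGCNNAA, a C/EBP motif, was present in those of Stfa1 and Cstdc5 and in 10.8% of all. TATAAA was in 0 of 6 against 13.6% of all, and the core of the interferon response element (GAAA, any 2 bases, GAAA) was in 0 of 6 against 3.44%. PU.1 and C/EBP factors drive myeloid gene expression in general, and these matches of letters do not show binding.

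In gated neutrophils the 6 genes together gave 53324 UMIs, with a level of 1466 CPM in OE-Vector 1 and of 2976, 3441 and 1307 CPM in OE-MLKL 1, 2 and 3, as the libraries were labelled. A 3′ tag is counted once per molecule whatever the transcript's length, so these levels were set side by side between genes without a length factor. Reads lost for fitting several genes can differ from gene to gene and are not corrected for, and the order below carries that limit. By shared stretches of the whole transcript, Cstdc4 and Cstdc5 are the most exposed. Stfa2l1 and Cstdc4 held the top places in every library. Cstdc4 stood at 954 CPM in OE-Vector 1 and at 1034, 1129 and 622 CPM in OE-MLKL 1, 2 and 3. Stfa2l1 stood at 446, 1081, 1333 and 560 CPM in the same order. The library ranges of these 2 genes overlapped, and which of them was higher changed from library to library.

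Stfa1, the third in every library, stood at 39.3, 489, 505 and 63.3 CPM in the libraries labelled OE-Vector 1 and OE-MLKL 1, 2 and 3. Cstdc5 followed at 13.0, 187, 224 and 22.0 CPM, and Stfa2 at 10.3, 140, 201 and 32.5 CPM. The order of Cstdc5 and Stfa2 was turned in OE-MLKL 3, so these neighbours were not separated by their spread. Stfa3 was lowest in every library, at 3.01, 44.9, 48.7 and 6.64 CPM, and rested on 19 UMIs in OE-Vector 1 and 55 in OE-MLKL 3. For each of Stfa1, Stfa2, Stfa3 and Cstdc5, the libraries labelled OE-MLKL 1 and 2 lay high and those labelled OE-Vector 1 and OE-MLKL 3 low, without overlap.

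**Figure D1:**
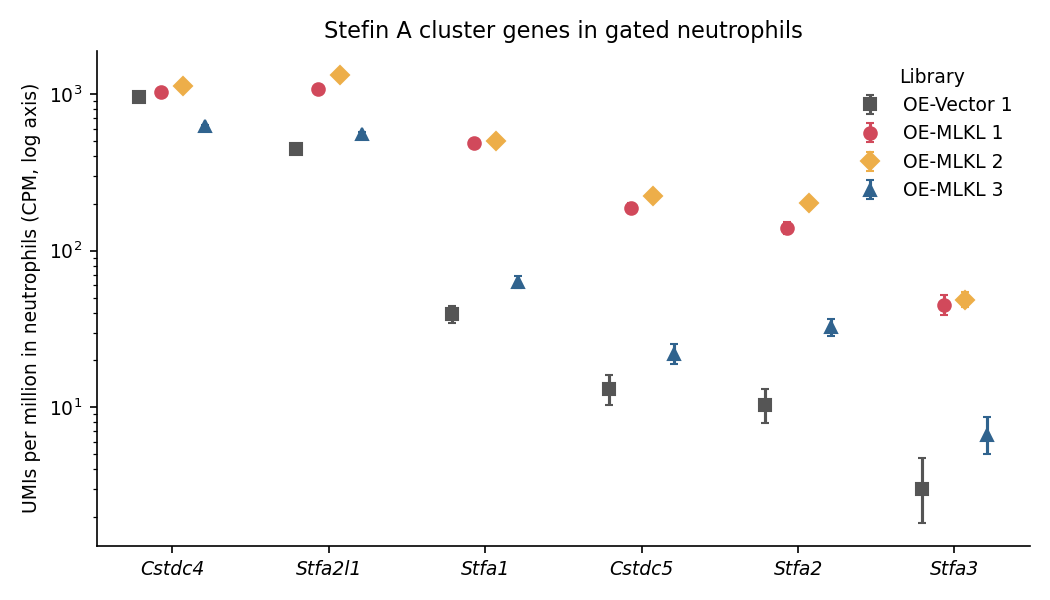
Level of each of the 6 genes in gated neutrophils of the 4 libraries, in CPM on a log axis, with exact 95% Poisson intervals that cover counting error only. Stfa1, Stfa2, Stfa3 and Cstdc5 differ between libraries by 12.8 to 19.5 times, Stfa2l1 and Cstdc4 by 2.99 and 1.82 times.

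The cluster was thus not uniform across libraries. The highest library stood above the lowest 19.5 times for Stfa2, 17.2 times for Cstdc5, 16.2 times for Stfa3 and 12.8 times for Stfa1, but 2.99 times for Stfa2l1 and 1.82 times for Cstdc4. A 10-fold range was passed by 4 of the 6 genes and by 42 of the 5411 genes with at least 500 UMIs in gated neutrophils (0.776%), for which the median ratio was 1.68. The genes had been picked with these values known. The library labelled OE-MLKL 2 was highest for all 6 genes, and the library labelled OE-Vector 1 was lowest for all but Cstdc4, whose lowest library was OE-MLKL 3.

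The makeup of the cluster's UMIs moved with these levels. Cstdc4 made up 65.1% and 47.6% of them in the libraries labelled OE-Vector 1 and OE-MLKL 3 against 34.7% and 32.8% in OE-MLKL 1 and 2. Stfa1 made up 2.68% and 4.85% against 16.4% and 14.7% in the same order. Stfa2l1 held 30.4% to 42.9% in all 4. A like makeup was found in some other barcodes: in cells with cancer markers Cstdc4 held 66.4% of the cluster's few UMIs in OE-Vector 1 and 34.7% in OE-MLKL 1, and in barcodes of at most 100 UMIs, which mostly hold free RNA, 65.7% and 35.8%. It held more in OE-Vector 1 in macrophages or monocytes (77.3%, against 33.0% in OE-MLKL 1) and in cells without a class (79.5% against 28.0%).

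**Figure D2:**
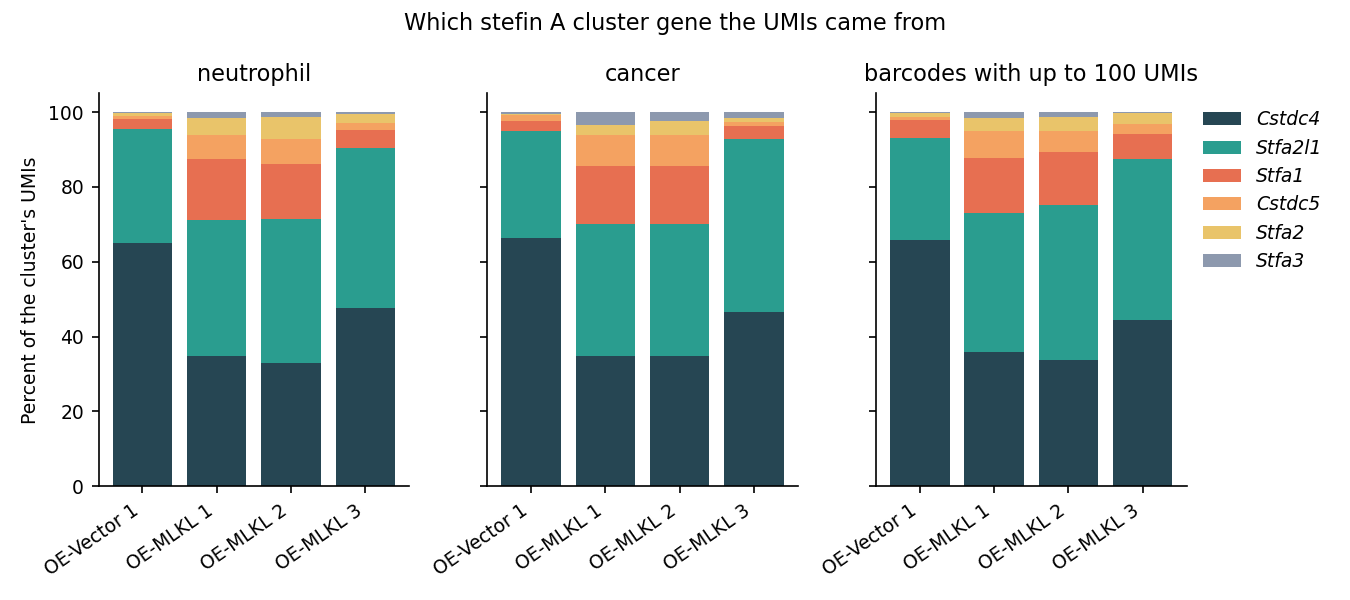
Share of the cluster's UMIs that each of the 6 genes took, in percent, for gated neutrophils, cells with cancer markers and barcodes of at most 100 UMIs of each library. In OE-Vector 1 Cstdc4 takes 65.1% in neutrophils and in OE-MLKL 2 32.8%, and within each library the 3 kinds of barcodes look alike.

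The range of Stfa1 showed mainly in the number of cells in which it was detected. At so few UMIs per cell this cannot tell fewer expressing cells from less RNA in each. When every neutrophil was thinned to 500 UMIs, Stfa1 was found in 50, 464, 763 and 100 cells of the libraries labelled OE-Vector 1 and OE-MLKL 1, 2 and 3, which are 0.990%, 9.57%, 10.1% and 1.79% of the neutrophils. The cells that had it carried on average 1.66, 2.54, 2.45 and 1.63 UMIs of it. Cstdc4, in contrast, was found in 18.2%, 19.8%, 22.2% and 13.6% of thinned neutrophils, with 2.51, 2.43, 2.36 and 1.93 UMIs per carrying cell. Without thinning, 13, 142, 203 and 34 cells held 5 or more UMIs of Stfa1. The 10% of neutrophils with the most UMIs of the cluster held 63.4% to 71.3% of the cluster's UMIs, and up to 129 UMIs came from a single cell. Poisson intervals on CPM take molecules as independent and are too narrow for transcripts bunched in this way.

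Depth and the gate also differed between these libraries. The median neutrophil held 1177 and 1381 UMIs in the libraries labelled OE-Vector 1 and OE-MLKL 3, against 732 and 757 in OE-MLKL 1 and 2. Of the cells outside the gate, 36.5% and 40.6% carried at least 3 of 11 neutrophil markers in OE-Vector 1 and OE-MLKL 3, against 8.69% and 9.14% in OE-MLKL 1 and 2. Within the gate these shares were 97.2%, 82.8%, 79.7% and 98.2% for OE-Vector 1 and OE-MLKL 1, 2 and 3. In neutrophils of 1000 to 2000 UMIs Stfa1 stood at 38.5, 455, 628 and 52.7 CPM in the same order, and the 6 genes together at 1571, 3849, 5316 and 1112 CPM. In cells of 750 to 1000 UMIs Stfa1 stood at 17.7, 653, 557 and 36.1 CPM. The part of depth and of the gate in the library range was not tested.

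Macrophage markers were also compared, since macrophages were the most common other immune cells. Their 13 markers, none at 0, summed to 772, 641, 652 and 1122 CPM in gated neutrophils of OE-Vector 1 and OE-MLKL 1, 2 and 3, and the 11 neutrophil markers, also none at 0, to 15418, 17427, 12673 and 19139 CPM. At least 3 markers of a second class were found in 5.52%, 1.32%, 1.60% and 17.9% of them. Left without these cells, the 6 genes together had a mean of 2620 CPM over the OE-MLKL libraries, against 2574 with them.

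In the other named classes the cluster stood far below its level in neutrophils. The 6 genes together stood at 8.63 to 19.0 CPM in macrophages or monocytes, at 7.94 to 16 CPM in T or NK cells and at 4.28 to 11.1 CPM in cells with cancer markers, across the 4 libraries. Barcodes of at most 100 UMIs held 123 to 212 CPM. Thinned to 500 UMIs, 0.349% to 1.47% of cells in these 3 classes had a UMI of any of the 6 genes, against 24.1% to 40.7% of neutrophils, and their median depths before thinning were 2658 to 24160 UMIs against 732 to 1381. Whether these UMIs were free RNA was not tested.

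The cluster was also set against S100a8 and S100a9 in the same cells. Per 1000 UMIs of S100a8 and S100a9, the neutrophils of OE-Vector 1 and OE-MLKL 1, 2 and 3 held 19.8, 43.9, 43.3 and 18.8 UMIs of the 6 genes. Cells with cancer markers held 22.5, 43.9, 44.6 and 17.6, and barcodes of at most 100 UMIs 23.9, 42.8, 43.2 and 22.9. Macrophages or monocytes held 35.5, 27.3, 41.1 and 22.1, and T or NK cells 26.3, 50.7, 35.1 and 16. Cells without a class held 114, 77.1, 112 and 25.7, where the gate itself limits S100a8 and S100a9, and at 24.7 to 101 CPM of the 6 genes. At the gate's edge the level was higher than in the barcodes of at most 100 UMIs on both sides: the 6 genes stood at 578, 455, 700 and 233 CPM in cells with 0.5% to 1% of S100a8 and S100a9, and at 545, 802, 751 and 234 CPM in cells with 1% to 2%.

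**Figure D3:**
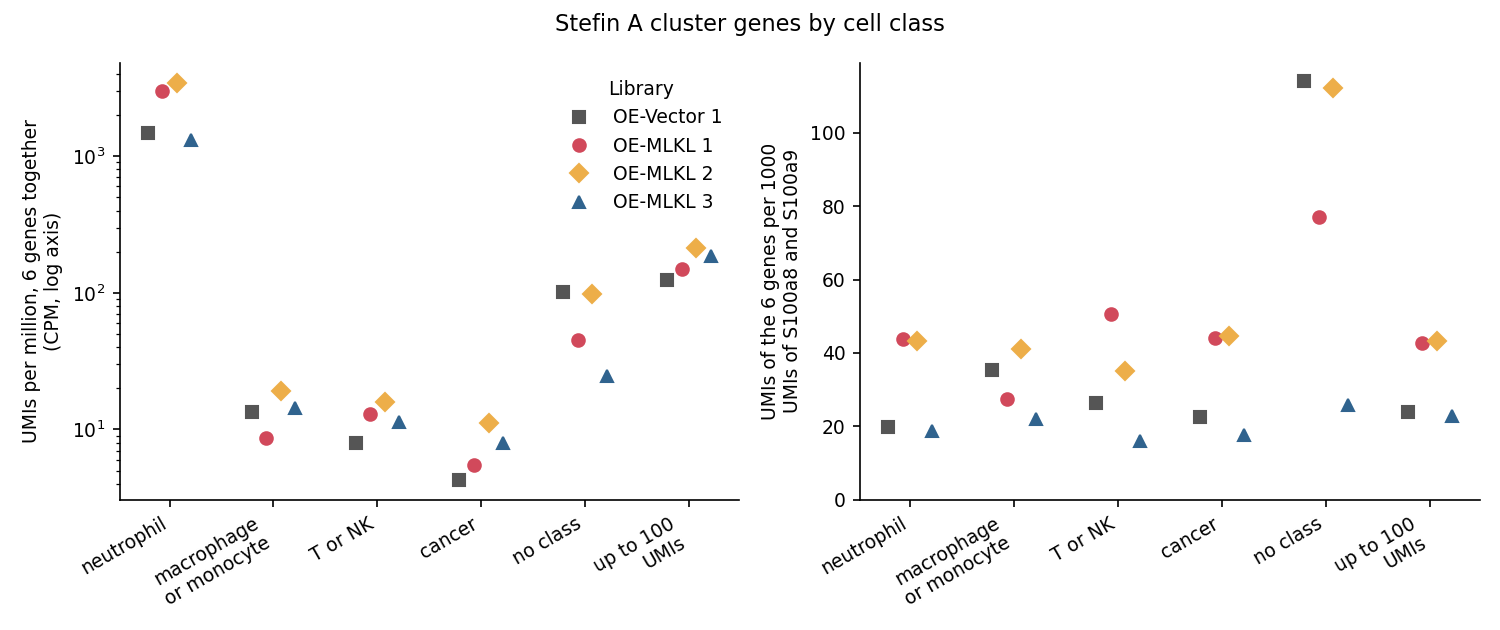
Left, summed CPM of the 6 genes by cell class and library on a log axis. Right, UMIs of the 6 genes per 1000 UMIs of S100a8 and S100a9 in the same classes: neutrophils lie at 18.8 to 43.9, cells with cancer markers at 17.6 to 44.6, and cells without a class at 25.7 to 114.

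The comparison of OE-MLKL with OE-Vector asks whether neutrophils of tumours built from MLKL-overexpressing cells differ from those of vector tumours. Here it set 3 libraries against 1, so the spread came from the OE-MLKL libraries alone. The summed level of the 6 genes was 2574 ± 1122 CPM (SD, n = 3) in OE-MLKL against 1466 CPM in the library labelled OE-Vector 1, which lies above OE-MLKL 3. Stfa1 stood at 352 ± 250 CPM against 39.3, Stfa2 at 125 ± 85.5 against 10.3, Stfa3 at 33.4 ± 23.3 against 3.01, Cstdc5 at 144 ± 108 against 13.0, Stfa2l1 at 992 ± 394 against 446 and Cstdc4 at 928 ± 269 against 954. The values of OE-MLKL lay above that of OE-Vector 1 in 3 of 3 libraries for all but Cstdc4, for which they did in 2 of 3, and on labels that Mlkl did not bear out.

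In edgeR's quasi-likelihood fit the log2 differences ± SE were 2.93 ± 1.22 for Stfa1, 3.36 ± 1.09 for Stfa2, 3.22 ± 1.24 for Stfa3, 3.24 ± 1.32 for Cstdc5, 0.91 ± 0.59 for Stfa2l1 and -0.28 ± 0.47 for Cstdc4. Their median was 3.08, against 0.04 over the 12615 genes tested. The fit called 0 of these 12615 genes (0%) at an adjusted p under 0.05, with 1037 genes at an unadjusted p under 0.05, and DESeq2 called 92. Without the library labelled OE-MLKL 3 the fit called 1305 genes. The members' library values were known when they were picked, so no call of theirs in this comparison is read. With library size as the scaling, the median of all genes moved to 0.29 and the 6 directions did not change. The same fit called 0 of 7 other stefin and cystatin genes, 0 of 9 papain-like cathepsin genes and 0 of 8 granule genes, with median log2 differences of -0.77, -0.72 and 1.18.

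As a share of cells, at least 1 UMI of any of the 6 genes was found in 24.6%, 39.6%, 40.7% and 24.1% of thinned neutrophils of OE-Vector 1 and OE-MLKL 1, 2 and 3. The OE-MLKL mean was 34.8% ± 9.27 (SD, n = 3), 10.2 percentage points above OE-Vector 1. An exact two-sided permutation test of 3 libraries against 1 allows no p under 0.25, so no test is read here. Without thinning the shares were 33.2%, 45.9%, 47.0% and 37.0%. Stfa2l1 was found in 12.4%, 26.9%, 28.6% and 15.3% of thinned neutrophils, Stfa2 in 0.297%, 3.50%, 4.65% and 0.842%, Stfa3 in 0.0396%, 1.48%, 1.52% and 0.233%, and Cstdc5 in 0.396%, 4.93%, 5.25% and 0.448%.

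The 6 genes were found together in the same neutrophils more often than independent draws would give. At 500 UMIs per cell, 12 of the 15 pairs were found in a shared cell in each of the 4 libraries. Over all pairs and libraries this held in 56 of 60 cases, each with an odds ratio above 1. A case enters only if a shared cell was found. Where under 1 shared cell is expected, its ratio therefore had to lie above 1, and such cases are no support. In the other 4 cases, with Stfa3 a member of the pair each time and at most 0.0582 cells expected by independent draws, 0 cells held both genes and no ratio is read. The median over the libraries with shared cells ran from 4.08 for Stfa1 and Stfa3 (3 libraries) to 21.1 for Stfa2 and Cstdc5. The best counted pair was Stfa2l1 and Cstdc4, both found in 2256 cells, with odds ratios of 6.55, 5.88, 7.24 and 6.05 in OE-Vector 1 and OE-MLKL 1, 2 and 3. In OE-Vector 1, Cstdc4 was found in 50.8% of cells with Stfa2l1 and in 13.6% of cells without it. Stfa2 and Stfa3 (14.3, 3 libraries) and Stfa3 and Cstdc5 (10.8, 2 libraries) followed Stfa2 and Cstdc5 in median odds ratio.

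**Figure D4:**
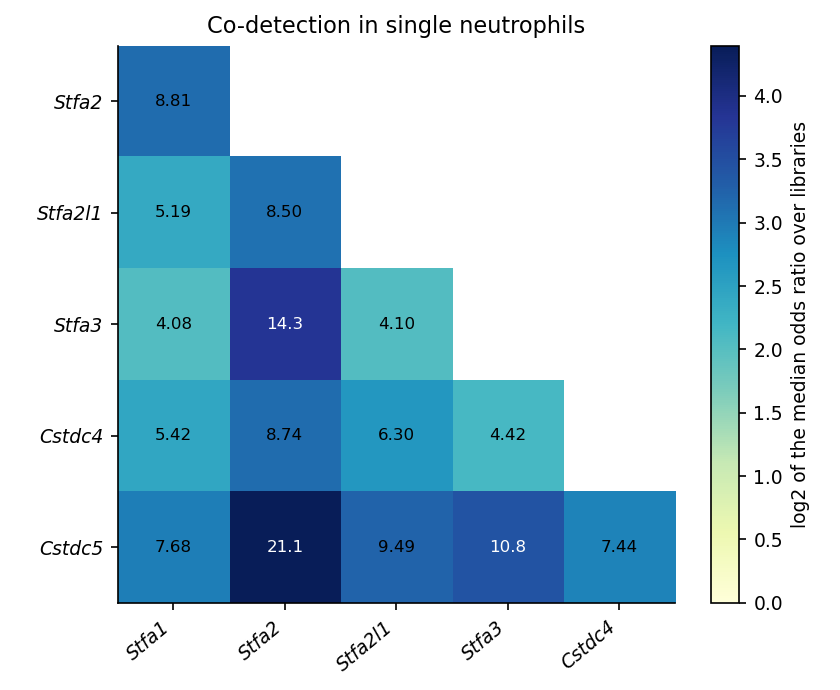
Median odds ratio, on a log2 colour scale, for finding both genes of a pair in a neutrophil thinned to 500 UMIs, over the libraries in which a cell held both. The medians of the 15 pairs run from 4.08 to 21.1. Counting only libraries with a shared cell can raise the values of rare pairs.

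At least 2 of the 6 genes were found in 6.87%, 17.4%, 19.7% and 6.95% of thinned neutrophils, where independent detection would give 2.71%, 12.6%, 14.7% and 2.91%. All 6 were found in 7 and 12 cells of OE-MLKL 1 and 2 and in 0 cells of the other libraries. When cells were thinned to 1000 UMIs and shallower ones left out, the shares with at least 2 genes were 12.6%, 28.1%, 39.1% and 12.7% against 6.05%, 27.9%, 40.8% and 6.65% if independent, so the excess was not seen in OE-MLKL 1 and 2 by this count. Pair by pair, the lowest ratio of found to expected shared cells at this depth was 1.56. Cases with under 1 shared cell expected had to lie above 1 once a shared cell was found, and are no support. Stfa2l1 and Cstdc4, with at least 201 shared cells in each library, were found together 1.59 to 2.36 times as often as independent draws give. Over the pairs at 500 UMIs per cell, with only those found together in a library counted, the mean log2 odds ratio was 3.09 ± 0.55 (SD, n = 4 libraries). Pairs without a shared cell drop out by their own outcome, and rare pairs that stay in can only have high ratios. This mean is therefore a description and does not measure the excess. Stfa2l1 and Cstdc4, with at least 318 shared cells in each library, were not selected in this way. Their mean log2 odds ratio was 2.68 ± 0.13 (SD, n = 4 libraries). The part of cell state, and of reads shared between close copies such as Stfa2 and Stfa2l1, in this co-detection was not tested.

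The comparisons between neutrophil states carry tests, though members and tests were chosen with earlier results of these data known. The states were gated on genes that are not members. The gate, in cells thinned to 500 UMIs, was at least 2 UMIs of a short list and under 2 of the other lists: Retnlg and Mmp8, Ccl3 and Ccl4, or 8 interferon-induced genes. Counts were summed per library and state and fitted in edgeR with the library as a term against neutrophils outside all states. Retnlg, a resistin-like protein, and Mmp8, neutrophil collagenase, are typical of mature neutrophils of bone marrow and blood. The Retnlg-Mmp8 state held 11.4%, 49.8%, 31.9% and 29.8% of the neutrophils of OE-Vector 1 and OE-MLKL 1, 2 and 3.

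The 6 genes stood higher in the Retnlg-Mmp8 state than outside the states in 4 of 4 libraries. Of 9604 genes tested, 17.3% were called at an adjusted p under 0.05, 11.8% higher and 5.48% lower. Stfa1, Stfa2l1, Cstdc4 and Cstdc5 were all called higher. Stfa2 and Stfa3 passed the filter on low counts here only with the sums of the state in which they are high. Their values are therefore a description with no test. Stfa3 stood at 16.6, 75.2, 112 and 17.4 CPM in the state and at 1.01, 12.4, 12.8 and 0.816 CPM outside it, in OE-Vector 1 and OE-MLKL 1, 2 and 3. The values outside rest on 3, 20, 43 and 3 UMIs.

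Stfa2 stood at 49.8, 196, 426 and 63.4 CPM in the state and at 2.01, 66.9, 71.2 and 16.6 CPM outside. Its log2 difference was 2.55 ± 0.21 (SE, n = 4 libraries), given with no test. The value outside in OE-Vector 1 rests on 6 UMIs. Stfa2 stood 24.8 times as high in the state as outside in OE-Vector 1, against 2.94, 5.98 and 3.82 times in OE-MLKL 1, 2 and 3. Cstdc5 stood at 49.8, 262, 457 and 36.6 CPM against 6.71, 105, 92.6 and 9.79 CPM, a log2 difference of 2.26 ± 0.17 (edgeR adjusted p = 1.06e-07). Both were higher in the state in 4 of 4 libraries. The values of the libraries labelled OE-MLKL 1 and 2 outside the state nevertheless lay above those of OE-Vector 1 and OE-MLKL 3 inside it. With an interaction term, added after the data were seen, the log2 difference of OE-MLKL from OE-Vector was -2.62 ± 0.64 for Stfa2. For Stfa1 it was -1.48 ± 0.40, and only Cstdc4 went the other way, at 0.26 ± 0.25. These values rest on a single OE-Vector library and are a description.

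Cstdc4, the most abundant member in OE-Vector 1, stood at 1713, 1286, 1937 and 1150 CPM in the state and at 806, 677, 665 and 308 CPM outside, and its libraries inside and outside did not overlap. Its log2 difference was 1.69 ± 0.12 (edgeR adjusted p = 4.89e-08). Stfa2l1 stood at 882, 1325, 2154 and 958 CPM against 385, 753, 858 and 329 CPM, likewise without overlap, with a log2 difference of 1.54 ± 0.10 (edgeR adjusted p = 2.19e-08). Stfa1 stood at 99.7, 565, 764 and 112 CPM against 20.1, 428, 369 and 37.8 CPM, a log2 difference of 1.44 ± 0.19 (edgeR adjusted p = 3.57e-05). For Stfa1 the difference between libraries was larger than that between states: neutrophils of OE-MLKL 1 outside the states had 428 CPM and those of OE-Vector 1 inside the state 99.7.

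The median log2 difference of the 5 genes other than Stfa3 was 1.69, against -0.015 over all genes. Of the alternatives run, the fit without the library term, which leaves the library range in the error, was the one in which the calls read were lost. A gate of 5% lowered Stfa1 to 0.83 and Cstdc4 to 1.08. By library size alone as the scaling, the split of all calls moved from 1132 higher and 526 lower to 410 and 3320, with the median of all genes at -0.33, and the 5 genes stayed higher. Macrophage markers summed to 698, 520, 627 and 1016 CPM in the state and to 810, 821, 638 and 1172 outside it, and neutrophil markers, with Retnlg itself among them, to 26418, 25722, 21973 and 31777 against 14283, 7860, 7571 and 12169. The part of these markers in the result was not tested.

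**Figure D5:**
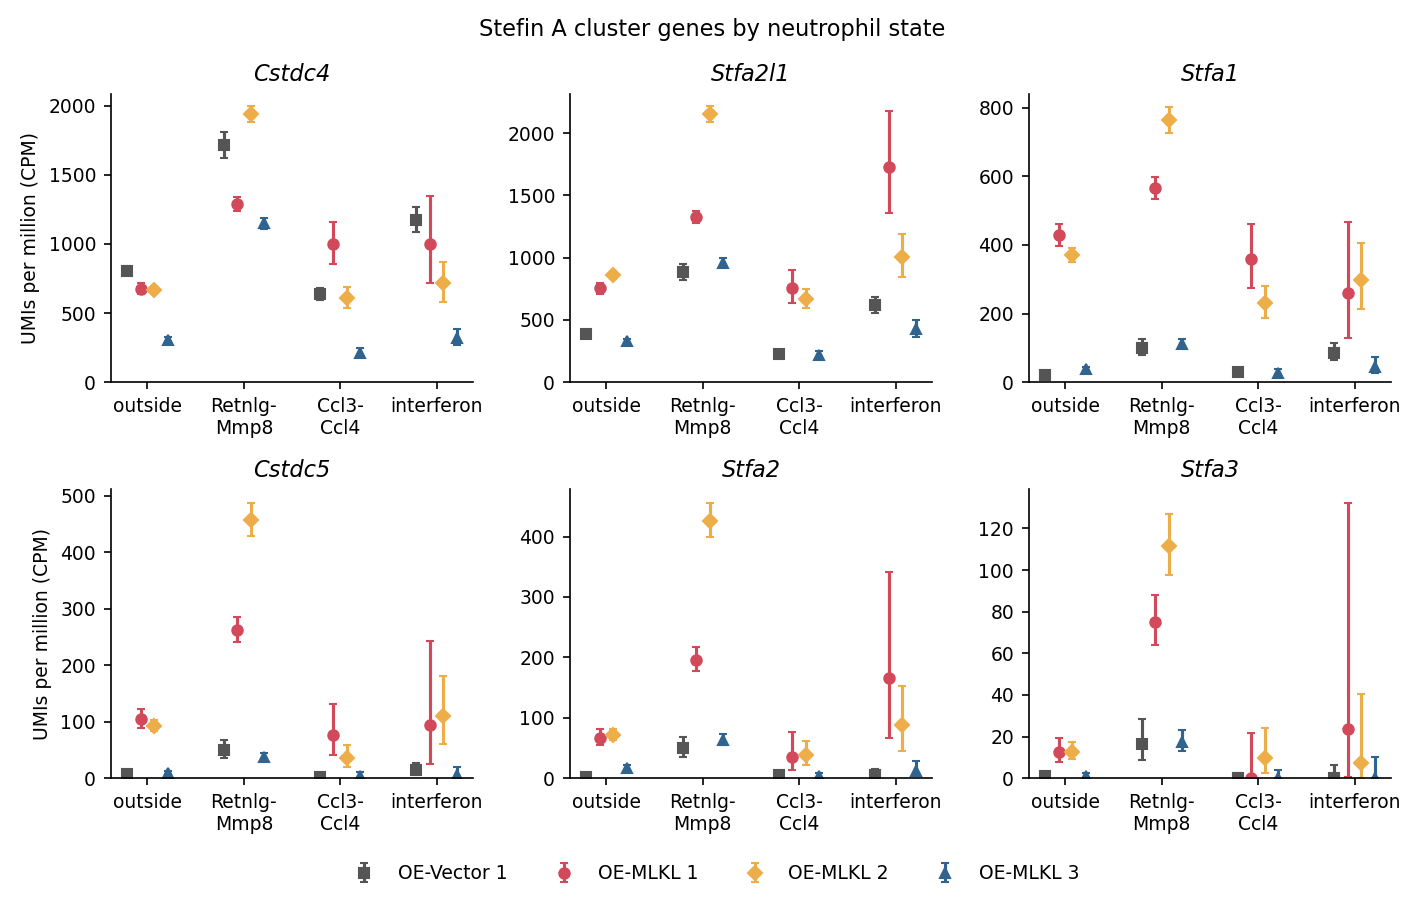
CPM of each of the 6 genes by neutrophil state and library on linear axes, with exact 95% Poisson intervals that cover counting error only. In every panel the Retnlg-Mmp8 state lies above neutrophils outside the states in 4 of 4 libraries.

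Ccl3 and Ccl4 encode the chemokines MIP-1 alpha and beta, and their state held 22.9%, 4.25%, 6.88% and 12.2% of the neutrophils of OE-Vector 1 and OE-MLKL 1, 2 and 3. Of 8757 genes tested, 4.44% were called, 2.72% lower in it and 1.72% higher. Stfa3, with 0, 0, 4 and 0 UMIs in the state, was not tested. Of the 5 members fitted, 2 were called lower, and only the call of Stfa2l1 is read. Cstdc5 stood at 1.34, 76.3, 35.6 and 4.08 CPM in the state against 6.71, 105, 92.6 and 9.79 CPM outside, lower in 4 of 4 libraries, with a log2 difference of -1.15 ± 0.25 (SE). With 2, 13, 15 and 4 UMIs in the state, it passed the filter on low counts only with the sums outside, where it is higher. Its values are therefore a description with no test. Stfa2l1 stood at 227, 758, 669 and 218 CPM against 385, 753, 858 and 329 CPM, lower in 3 of 4 libraries, with a log2 difference of -0.48 ± 0.12 (edgeR adjusted p = 0.0144).

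The other differences in the Ccl3-Ccl4 state were -0.86 ± 0.31 for Stfa2, -0.35 ± 0.15 for Stfa1 and -0.16 ± 0.13 for Cstdc4, which did not pass, and the median of the 5 was -0.48 against -0.005 over all genes. The call of Stfa2l1 was lost without OE-Vector 1 (-0.33), without OE-MLKL 3 (-0.42), with doublet candidates kept (-0.13) and by DESeq2 (-0.46). For Cstdc5 the log2 difference was -0.95 without OE-MLKL 2 and -0.82 in cells of at least 1000 UMIs. Stfa1 (-0.49) and Stfa2 (-1.20) were called without OE-Vector 1, and Cstdc4 (-0.38) without OE-MLKL 1, while with doublet candidates kept Stfa1 (0.038) and Cstdc4 (0.21) turned direction. Library size scaling turned the split of all calls from 151 higher and 238 lower to 196 and 173, and the members' directions did not change.

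The interferon state, gated on Isg15, Ifit1, Ifit2, Ifit3, Ifit3b, Rsad2, Oasl1 and Cxcl10, held 479, 47, 157 and 255 cells in OE-Vector 1 and OE-MLKL 1, 2 and 3. Of 7650 genes tested, 5.7% were called, 4.95% higher and 0.745% lower. Among the 5 members tested, again all but Stfa3, 2 were called higher. Stfa2l1 stood at 620, 1731, 1007 and 428 CPM in the state against 385, 753, 858 and 329 CPM outside, higher in 4 of 4 libraries, with a log2 difference of 0.66 ± 0.11 (SE, edgeR adjusted p = 1.15e-07). Cstdc4 stood at 1175, 996, 715 and 322 CPM against 806, 677, 665 and 308 CPM, also higher in 4 of 4, with a log2 difference of 0.40 ± 0.11 (edgeR adjusted p = 0.0093). These SE and p-values rest on the spread that edgeR shares over genes, with no weight on a gene's own spread between libraries. By library the ratios ran from 1.17 to 2.30 for Stfa2l1 and from 1.05 to 1.47 for Cstdc4.

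Stfa2 (0.47 ± 0.33), Stfa1 (0.41 ± 0.17) and Cstdc5 (0.27 ± 0.31) did not pass, and the median of the 5 log2 differences was 0.41 against -0.06 over all genes. The call of Cstdc4 was lost without OE-Vector 1 (0.23) and without OE-MLKL 3 (0.46), Stfa1 was called without OE-MLKL 2 (0.76) and turned to -0.25 without OE-Vector 1, and in cells of at least 1000 UMIs the calls of Stfa2l1 (0.49) and Cstdc4 (0.30) were lost. Macrophage markers summed to 927, 379, 1584 and 1273 CPM in the interferon state against 810, 821, 638 and 1172 outside it. Library size scaling moved the split of all calls from 379 higher and 57 lower to 301 and 234, with the median of all genes at -0.18, and the members' directions did not change.

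The relatives of the cluster did not all follow it. Of 13 other stefin and cystatin genes, chosen by symbol or by position in the block, 4 had enough UMIs to be tested between states. In the Retnlg-Mmp8 state Csta3 (log2 difference 1.14 ± 0.20, edgeR adjusted p = 0.000692) and Csta2 (1.13 ± 0.14, edgeR adjusted p = 1.45e-05), both from the same block, were higher. Cstb, the stefin B gene (-0.42 ± 0.12, edgeR adjusted p = 0.0186), and Cst3, the secreted cystatin C gene (-0.33 ± 0.08, edgeR adjusted p = 0.00914), were lower. In the Ccl3-Ccl4 state Cstb was higher (0.74 ± 0.11, edgeR adjusted p = 0.000114), and in the interferon state 0 of the 4 passed, with Cst3 at 0.10 ± 0.10, Cstb at -0.06 ± 0.13 and Csta2 at 0.17 ± 0.32. Over all gated neutrophils Csta2 stood at 20.8, 111, 82.2 and 17.7 CPM in OE-Vector 1 and OE-MLKL 1, 2 and 3, high in the same libraries as Stfa1. Cstb had its highest value in OE-Vector 1, at 939 CPM against 280, 243 and 285, and Csta3 stood at 18.4, 14.5, 15.0 and 6.40 CPM.

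Of the 10 papain-like cathepsin genes, whose products stefins inhibit, 7 were tested in the Retnlg-Mmp8 state, and Ctsl was called higher (0.30 ± 0.10, edgeR adjusted p = 0.0438). In this fit the median of all genes moved from -0.015 to -0.33 with library size scaling. Ctsl was not read under that scaling. In the Ccl3-Ccl4 state 0 of 7 passed, with the top levels in neutrophils at Ctss (-0.17 ± 0.10), Ctsb (0.31 ± 0.10) and Ctsz (0.34 ± 0.10). In the interferon state Ctss, cathepsin S, was higher (0.81 ± 0.12, edgeR adjusted p = 2.53e-10), 1 of 6 tested. Ctsb stood at 475 CPM in OE-Vector 1 against 177, 187 and 324 in OE-MLKL 1, 2 and 3, and Ctss at 301 against 291, 330 and 520.

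Granule genes, which neutrophils transcribe stage by stage as they mature in bone marrow, were called in both directions in the Retnlg-Mmp8 state. Mmp8 gated the state, so its call was fixed in advance. Ngp (2.85 ± 0.26, edgeR adjusted p = 9.79e-07), Lcn2 (1.63 ± 0.17, edgeR adjusted p = 3.65e-06) and Mmp9 (0.54 ± 0.10, edgeR adjusted p = 0.000806) were higher. Ltf (-2.12 ± 0.24, edgeR adjusted p = 8.07e-06) and Prtn3 (-1.14 ± 0.25, edgeR adjusted p = 0.0036) were lower. With Mmp8 counted, 6 of 7 tested were called. In the Ccl3-Ccl4 state Ltf (1.25 ± 0.18) and Lcn2 (0.59 ± 0.14) were called higher and Ngp (-0.94 ± 0.25) and Mmp8 (-0.67 ± 0.15) lower, and in the interferon state Lcn2 was called higher (0.42 ± 0.10). Over the libraries Ngp stood at 3.81, 739, 154 and 27.8 CPM, Lcn2 at 730, 3180, 2409 and 1166 CPM and Camp at 4.92, 102, 1.78 and 0.483 CPM, in OE-Vector 1 and OE-MLKL 1, 2 and 3. Lcn2 and Ngp, like Stfa1, were higher in OE-MLKL 1 and 2 than in the other libraries. Mmp9 was lower there, at 1555, 534, 625 and 1050 CPM in the same order. Ltf, at 36.5, 17.2, 33.1 and 32.6 CPM, and Camp followed neither pattern.

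The genes most like the cluster were found by correlation, given as description. Over 27 sums of counts by class and library, which share libraries and depth, Slco4c1 (Pearson r 0.968), Gm50276 (0.962), Gm43177 (0.961), Ceacam10 (0.960), S100a8 and Csta3 (both 0.957), Cebpe (0.957), 4930519G04Rik (0.956), Asprv1 (0.953) and Il1r2 (0.952) came closest in log2(CPM + 1), and several of them are typical neutrophil genes, Cebpe encoding a C/EBP factor of granulocytes. Across single neutrophils thinned to 500 UMIs, with r averaged over the 4 libraries and 1097 genes compared, S100a9 led at 0.304 (0.261 to 0.350 by library), followed by S100a8 (0.265), Retnlg (0.254), Wfdc17 (0.209), Srgn (0.194), S100a11 (0.189), Slpi (0.182), Ifitm1 (0.161), Wfdc21 (0.159) and Ifitm2 (0.150). These are weak relations in sparse counts, and S100a8, S100a9 and Retnlg had a part in gating the cells or states.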

How the data were processed

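The authors name the 10x Genomics 3′ v2 chemistry for the single-cell suspensions of tumours, which was not checked here. The deposited values are raw, unfiltered UMI counts per gene and barcode, with 2295176 to 2991965 barcodes listed per library. The labels name Cell Ranger 2.1.1 and mm10, and the matrix headers cellranger 7.1.0, so whether intronic reads were counted was not settled. Each library was 1 tumour sample. The p-values read come from the state fits, in which the library term takes out differences in level between samples. They set the state difference against a spread between libraries, which may be technical and which edgeR shares over genes. With 3 residual degrees of freedom a gene's own spread can have little weight. In the interferon fit the p-values rest on the shared spread alone, and a gene's own spread had no weight.

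Cells with at least 500 UMIs, more than 200 genes, under 10% mitochondrial and at most 5% haemoglobin UMIs were kept (74545), and 11363 doublet candidates were removed by a simulated-doublet neighbour score at 0.8% per 1000 cells. Neutrophils were gated by S100a8 and S100a9, and other cells were classed by at least 3 distinct markers and 2 more than in any of the other non-neutrophil classes. Counts summed per library (or library and state) were tested with edgeR 4.0.16 (quasi-likelihood, TMM scaling, filterByExpr, Benjamini-Hochberg) in R 4.3.3, with DESeq2 1.42.0 as an alternative, and with no covariate between groups. Each fit was tested on simulated data. Shares were compared after thinning to 500 UMIs. Intervals are exact at 95% and cover counting error only. Odds ratios had 0.5 added to each cell. The genes named are the 6 members, the called genes of 3 fixed lists (or their 3 highest) and the 10 most like genes by each measure. Members, lists and tests were chosen with earlier results of these data known. Promoters came from RefSeq, and Python 3.11.15 with scipy 1.17.1 was used.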

Additional observations from a re-analysis of the deposited data

Results flagged for a closer look

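In the library labelled OE-Vector 1, 2 members went the other way in the Ccl3-Ccl4 state than in the libraries labelled OE-MLKL. Stfa1 stood 1.40 times as high in the state as outside the states in OE-Vector 1, against 0.837, 0.623 and 0.703 times in OE-MLKL 1, 2 and 3. This rests on 42 UMIs in 16 cells of the state and 60 UMIs outside. Stfa2 stood 3.0 times as high in OE-Vector 1, against 0.527, 0.532 and 0.185 times, and this rests on 9 UMIs in 2 cells, 8 of them in 1 cell, against 6 UMIs outside. In a fit with an interaction term, chosen after the data were seen, the difference of OE-MLKL from OE-Vector was -0.87 ± 0.35 on the log2 scale for Stfa1 and -2.65 ± 0.83 for Stfa2.

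In the interferon state the same kind of fit gave a difference of -2.51 ± 0.42 for Stfa1 on the log2 scale, which drew attention to it. Stfa1 and Stfa2 had been picked with their library differences known, so all 3 differences are descriptions and no p is given. The level of Stfa1 in the interferon state was 4.25 times that outside in OE-Vector 1 and 0.610, 0.810 and 1.18 times in OE-MLKL 1, 2 and 3. The value of OE-Vector 1 rests on 50 UMIs in 15 cells, 14 of them from 1 cell, against 60 UMIs in 30 cells outside. OE-Vector was a single library here, on a label that Mlkl did not bear out.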

How the results depend on the processing

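No paired analysis was possible because only 1 OE-Vector library was analysed here, so the groups shared a single replicate number. Between the groups, the count of called genes was 0 in the main fit, 92 by DESeq2, 61 without the filter and 1 to 1305 when an OE-MLKL replicate was left out, the highest without OE-MLKL 3. For the Retnlg-Mmp8 state (1658) it was 3730 with library size scaling, 1042 by DESeq2, 1 without the library term and 767 to 1718 with a library left out (767 without OE-MLKL 3, 1022 without OE-MLKL 2). For the Ccl3-Ccl4 state (389) it was 135 by DESeq2, 639 without the filter, 602 with doublet candidates kept, 206 in cells of at least 1000 UMIs, 231 with a gate of 5%, 2 without the library term and 149 to 381 with a library left out (149 without OE-Vector 1, 192 without OE-MLKL 3). For the interferon state (436) the same settings gave 227, 286, 712, 268, 205 and 58, and 230 to 416 (230 without OE-Vector 1, 240 without OE-MLKL 3).

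Of the members' values, 58 of 75 in the Ccl3-Ccl4 state and 54 of 73 in the interferon state kept direction and call. Without the library term the called members of each state lost their calls. In the Ccl3-Ccl4 state Stfa1 and Stfa2 were also called without the filter (-0.43 and -0.95) and with 3 UMIs required (-0.51 and -1.88). In the interferon state they were called with doublet candidates kept (0.82 and 0.95), and Cstdc4 lost its call by DESeq2 (0.40), without the filter (0.23), with a gate of 5% (0.21) and with 3 UMIs required (0.20). Between groups, with no call read, the log2 difference was 2.60 to 4.29 for Stfa1 and 2.85 to 5.37 for Stfa2 over the alternatives, highest in cells under 1000 UMIs. Turned directions were, in the Ccl3-Ccl4 state with doublet candidates kept, Stfa1 (0.038) and Cstdc4 (0.21). In the interferon state they were Stfa1 (-0.39) and Cstdc5 (-1.11) with 3 UMIs required, Stfa1 (-0.40), Stfa2 (-0.083) and Cstdc5 (-0.47) without the library term, and Stfa1 (-0.25) without OE-Vector 1, whose value with another library left out reached 0.76. The causes were not tested. The summed level over OE-MLKL rose to 3729 CPM with a gate of 5% and was 2141 to 3208 CPM with a replicate left out. The share difference was 9.72 to 17.1 points under other settings and 7.25 to 15.5 with a replicate left out. With the 4 cases of 0 shared cells included through the added 0.5, the mean log2 odds ratio was 3.16 ± 0.69. On that count it was 2.78 and 3.05 under other settings and 2.83 to 3.34 with a library left out. The added 0.5 alone gave Stfa2 and Stfa3 in OE-Vector 1 an odds ratio of 65.0 with 0 shared cells, so these means are descriptions too. Leaving out replicates for level and co-detection, pairs found together, and cells under 1000 UMIs, were settings chosen after seeing the data. Rare members are limited by depth, with 556 UMIs of Stfa3 in all neutrophils.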
